A study of Homo sapiens with 42 samples.

Results

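Translation initiation and elongation factors are the soluble proteins that place a ribosome on a messenger RNA and move it along. Here they were taken as the genes whose symbol starts with EIF or EEF, on probes that name only 1 gene in the array annotation. This gave 37 of the 5631 genes with such a probe, 33 EIF and 4 EEF genes, on 65 of 13824 probes. Where a gene has several probes, the brightest by mean log2 value stands for it. The choice used no difference between the media. By role, 29 members were counted as initiation factors and 5 as acting in elongation, EIF5A being counted with the 4 EEF genes. The 29 were not sorted further and take in EIF4A3 and EIF6. A further 2 are inhibitors of the cap-binding protein, and 1, EIF3FP3, is a pseudogene of EIF3F. A further 10 probes name an EIF or EEF symbol beside another gene and were not used, among them all probes of EIF4A1, EIF4A2 and EEF1B2.

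The samples were total RNA of Hep3B cells, an established human hepatoma line, kept in CM, a medium that the labels call enriched in pro-inflammatory cytokines, or in the control medium NCM. Each medium has 3 cultures at T0 and 3 at each of 6 later times (15 and 30 min, then 1, 3, 6 and 16 h), which makes 14 groups and 42 arrays. The CM and NCM culture of a time and experiment came from trypsinized cells of the same batch, and there were 3 independent experiments, so every time has 3 pairs. The genotype is that of the line in all groups, and no other agent is named.

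In initiation, eIF2 brings the initiator transfer RNA to the small ribosomal subunit, eIF3 holds that subunit together with other factors, and the eIF4 proteins bind the cap and unwind the messenger RNA. In elongation, eEF1A delivers each aminoacyl-tRNA, the eEF1B complex recharges eEF1A, and eEF2 moves the ribosome by a codon. In the liver an inflammatory stimulus is known to raise the synthesis of secreted acute phase proteins, and elongation factor messenger RNAs are known for a run of pyrimidines at their 5′ end, the TOP motif, through which mTOR signalling controls their translation.

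The pyrimidine run was looked up at the annotated starts of the members in the RefSeq promoter table of GRCh38.p14, where 28 of the 37 genes have an entry. The search took a C at the start base followed by C or T, at least 5 bases in all, on the strand of the gene. It matched 8 of the 39 starts of these members, or 20.5%, against 4.07% of all 35116 starts in the table and 65.0% of 60 starts of ribosomal protein genes that were measured. By gene, with a match at any start, these were 28.6% of the 28 members, 5.14% of 27305 genes and 76.5% of 51 ribosomal protein genes. The windows below run from 20 bases before the start to 10 from it, with the run in capitals, and show which initiation factors carry the same kind of start as EEF1A1 and EEF2. A match describes these letters and is not a mapped start in Hep3B cells.
EEF1A1 (chr6:73521023-73521052, minus strand): cagtagtcgccgtgaacgttCTTTTTCgca
EEF2 (chr19:3985454-3985483, minus strand): tgagtgttgacgtcagcgttCTCTTCCgcc
EIF2D (chr1:206612456-206612485, minus strand): gccctggtttccagccgggcCCTTTTCgcg
EIF2S3 (chrX:24054936-24054965, plus strand): cagccggggtgatttccttcCTCTTTTggc
EIF3D (chr22:36529157-36529186, minus strand): ccgctgcgcgcgcatgtttcCTCTTTTCCT
EIF3K (chr19:38619168-38619197, plus strand): gtcgtttccgtttccaccacCTCTTCCTgt
EIF3M (chr11:32583811-32583840, plus strand): gcgtcgcgcggcccagttccCTTTTCCggt
EIF4B (chr12:53006436-53006465, plus strand): cgtgattgcctcatccgggtCTTTTgcgtt
EEF1G (chr11:62573882-62573911, minus strand): ccttctctcccgggcggcttactttgcggc
EIF4E (chr4:98929124-98929153, minus strand): cccccccttctggagcggttgtgcgatcag
EEF1G and EIF4E are given as members whose annotated start base does not open such a run.

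All values are quantile-normalized intensities on the log2 scale, and a change is CM minus NCM at 1 time. The deposited arrays had means of 0.999 to 1.00 and medians of 0.354 to 0.807, and precision is limited by how many arrays there are. Of 16 hepatocyte and hepatoma markers, 15 were measured and 10 lay in the brightest 25% of all probes, each gene taken at its brightest probe. Of the monocyte, fibroblast, endothelial and lymphocyte markers 5, 5, 4 and 2 were measured, with 0, 1, 0 and 0 there. The arrays NCM 1 h replicate 1 and NCM T0 replicate 2 stood apart, with median correlations to the other arrays of 0.723 and 0.731, and they touch every value at 1 h and at T0. Where leaving out their 2 pairs turned a change named below or moved it by over 1.5 times, the value without them stands beside it. The next lowest were all of replicate 1: NCM 15 min (0.770), CM 3 h (0.780) and NCM 30 min (0.795). Their pairs were kept, so values at those times that experiment 1 leads rest on such arrays. The description of the samples ties the CM and NCM culture of a pair to 1 batch of cells, but the sources used here do not say whether an experiment number names the same batch at every time, T0 included.

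Among the members, EIF3E, EIF4E, EIF3D and EEF1D had the lower values in CM with the smallest p, and EIF6 and EIF1B the higher ones, each at 1 or 2 of the 7 times. No member passed the threshold of an adjusted p of 0.05 in limma at any time, where the test called 0% of the 13824 probes from T0 to 6 h and 0.00723% at 16 h. At an unadjusted p under 0.05 there were 3 members at T0, 2 at 15 min, 1 at 30 min, 5 at 1 h, 2 at 3 h, 0 at 6 h and 0 at 16 h. Over all probes these shares were 5.06%, 3.56%, 3.51%, 4.38%, 3.26%, 3.76% and 4.76% in the same order. Without the pairs of the arrays that stood apart there was 1 member at T0, EIF3A, and there were 3 at 1 h, EIF3E, EEF1D and EIF4G2, against 1.43% and 2.05% of probes. In the mean over 15 min, 30 min and 1 h, 7 of 37 members had an unadjusted p under 0.05, 3 higher and 4 lower in CM, against 7% of probes, and limma called 0 members and 0% of probes. With the pairs of the arrays that stood apart left out, 6 members had an unadjusted p under 0.05 in this mean. They were 2 higher and 4 lower in CM, against 5.43% of probes, namely EEF1D, EIF1, EIF2S3, EIF3E, EIF4A3 and EIF4H. In the mean over 3 h, 6 h and 16 h limma called 0 members, 0.0434% of probes were called, and 0 members had an unadjusted p under 0.05 against 5.98% of probes. The late mean minus the early mean gave 0 calls and 1 unadjusted p under 0.05, that of EEF1D, against 7.49% of probes. The F test over the 6 times after T0 called 0 members and 0% of probes, and 2 members had an unadjusted p under 0.05 against 2.99% of probes. These were EIF3E (unadjusted p = 0.00681) and EIF4E (0.0308).

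The largest group of members below 0 was found at 15 min, when 27 of 37 had a lower value in CM, 73.0% against 51.6% of all genes, with a median change of -0.10 against -0.01. The medians of the members in the 3 pairs of that time were -0.09, 0.08 and -0.16, so the direction was not shared by the pairs. At 3 h, 24 of 37 were below 0, and the median was -0.12, with -0.18, -0.01 and -0.06 in the pairs. At the other times the median change of the members was -0.07 at T0, 0.04 at 30 min, 0.00 at 1 h, -0.06 at 6 h and -0.05 at 16 h, with -0.04 at T0 and -0.01 at 1 h without the pairs of the arrays that stood apart. At 1 h the pair medians, -0.15, -0.10 and -0.08, were all below 0 although the median of the gene means was 0.00. Members lower in CM in 3 of 3 pairs numbered 8, 6, 4, 6, 9, 3 and 5 from T0 to 16 h, against 9.19%, 9.51%, 11.7%, 12.8%, 11.9%, 11.3% and 12.6% of all probes. Those higher in 3 of 3 pairs numbered 4, 3, 3, 3, 3, 5 and 2, against 9.47%, 11.9%, 8.8%, 15.6%, 14.6%, 13.3% and 13.3% of all probes. The plot of the members by time shows how far single genes lay from these medians.

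**Figure D1:**
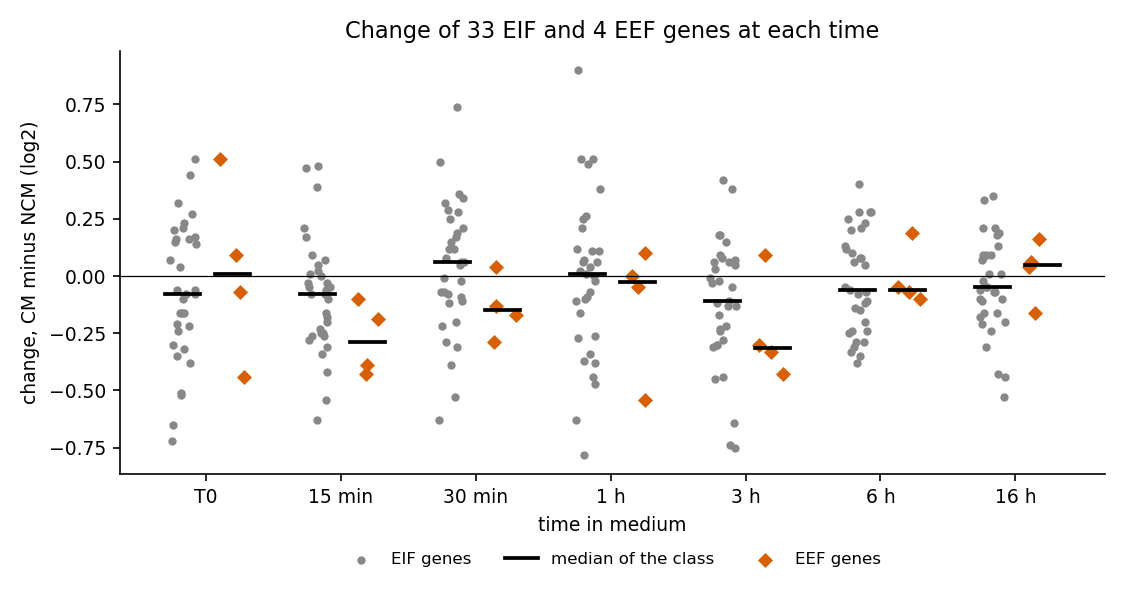
Change of each EIF gene (grey circles, 33) and EEF gene (orange diamonds, 4) at each time (log2 of CM minus log2 of NCM), and the median of each class as a bar. Single EIF genes reach from -0.78 (EIF3E) to 0.90 (EIF6) at 1 h, while every class median lies between -0.31 and 0.06.

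Initiation was set against elongation as the median change of the 33 EIF genes minus that of the 4 EEF genes. The difference was -0.08 at T0, 0.21 at 15 min, 0.21 at 30 min, 0.04 at 1 h, 0.21 at 3 h, 0.00 at 6 h and -0.10 at 16 h. Without the pairs of the arrays that stood apart it was -0.15 at T0 and -0.09 at 1 h. At 15 min the EEF median was -0.29 and the EIF median -0.08, but the pair values of the difference were -0.24, 0.27 and 0.49 (mean 0.17, SD 0.38, n = 3), and without experiment 3 the EEF median was -0.04. At 3 h the EEF median was -0.31 and the EIF median -0.11, and the pair values, 0.18, 0.10 and 0.14, were all above 0 with an SD of 0.04. At 3 h the pairs did not share a direction when the classes were drawn by role. With 29 initiation and 5 elongation factors, the 3 h difference of the medians was 0.19 while the pair values were -0.11, -0.03 and 0.09. At 30 min the difference by role was 0.11, in place of 0.21, from pairs of 0.13, -0.17 and 0.20. Over the 18 pairs after T0 the difference was above 0 in 13 by symbol and in 10 by role. With 4 genes in a class no test of the classes was made.

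Among the initiation factors, EIF3E, a subunit of the eIF3 scaffold, had the smallest p of all members. At 1 h its log2 values were -0.29, -0.63 and -0.44 in CM and 0.54, 0.21 and 0.25 in NCM for experiments 1, 2 and 3. Every CM culture lay below every NCM culture. With 3 cultures in a group such a separation, here and below, can arise by chance, and its share over all genes is not given. The change was -0.78 (SE 0.17, n = 3 pairs, adjusted p = 0.569 in limma), 1.72-fold lower in CM, and the pair differences of -0.83, -0.83 and -0.69 had an SD of 0.08. Without the pair of the array that stood apart it was -0.76. Before and after 1 h the change was small, from -0.06 at T0 (0.07 without the pair of the array that stood apart) to -0.12 at 30 min, and -0.22 at 3 h. The 1 h change minus that at 15 min was -0.71, and minus that at 30 min it was -0.66, with adjusted p of 1.00 and 0.998.

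The eIF3 complex was represented by 9 subunit genes, EIF3E included. In the mean over 3 h, 6 h and 16 h all 9 were below 0, from -0.32 for EIF3G to -0.05 for EIF3A, with a median of -0.16 against 0.00 over all genes, of which 49.6% were below 0. None passed the test. The 9 of 9 holds for the brightest probes only. EIF3K had -0.18 on its brightest probe but 0.16 on its second, with a mean of -0.01. The second probe of EIF3L had -0.30. The median of the 9 in single pairs was -0.23, -0.15 and -0.22 at 3 h, 0.01, -0.24 and -0.05 at 6 h, and -0.17, -0.14 and -0.28 at 16 h. It stayed below 0 with the values as deposited (-0.24), median centring (-0.19) and neighbour centring (-0.08). Leaving out experiment 1 left 7 of 9 below 0 and leaving out experiment 2 left 8. At T0 the median of the same genes was 0.04, with 4 of 9 below 0, and 0.12 with 3 of 9 below 0 without the pair of the array that stood apart.

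EIF3D, an eIF3 subunit that can bind the cap of some messenger RNAs, had log2 values of -1.28, -1.33 and -1.67 in CM and -0.84, -0.65 and -0.56 in NCM at 3 h. The groups did not overlap, and the change was -0.75 (SE 0.22, n = 3 pairs, unadjusted p = 0.00334, adjusted p = 1.00 in limma). At T0 its groups did not overlap either, with a change of -0.38, and 3 h minus T0 was -0.36. Without the T0 pair of experiment 2, whose NCM array stood apart, these were -0.57 and -0.17. At 6 h its change was 0.25, and 0.05 without experiment 1. EIF3M had -0.63 at 30 min and -0.64 at 3 h, in both cases led by experiment 2, whose differences were -1.41 and -1.72. EIF3G had -0.53 at 16 h with no overlap of the groups, and -0.65 at T0, where the difference of experiment 2, -1.48, rests on an array that stood apart and the change without that pair was -0.23. EIF3B had -0.44 at 16 h, from -1.17, 0.13 and -0.28 in the pairs. EIF3A had -0.29 at 6 h, and -0.15 without experiment 1. EIF3L had 0.47 at 15 min and -0.35 at 6 h, the latter -0.11 without experiment 2. EIF3K lay between -0.30 and 0.21 over the 7 times, and its 0.21, at 1 h, was 0.03 without the pair of the array that stood apart. The probe of EIF3CL, whose sequence is nearly shared with EIF3C and so cannot be assigned to it alone, had -0.54 at 15 min and -0.38 at 6 h. These were 0.04 without experiment 1 and -0.06 without experiment 2. The pseudogene EIF3FP3, nearly identical to EIF3F, had 0.40 at 6 h, and 0.25 without experiment 2.

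**Figure D2:**
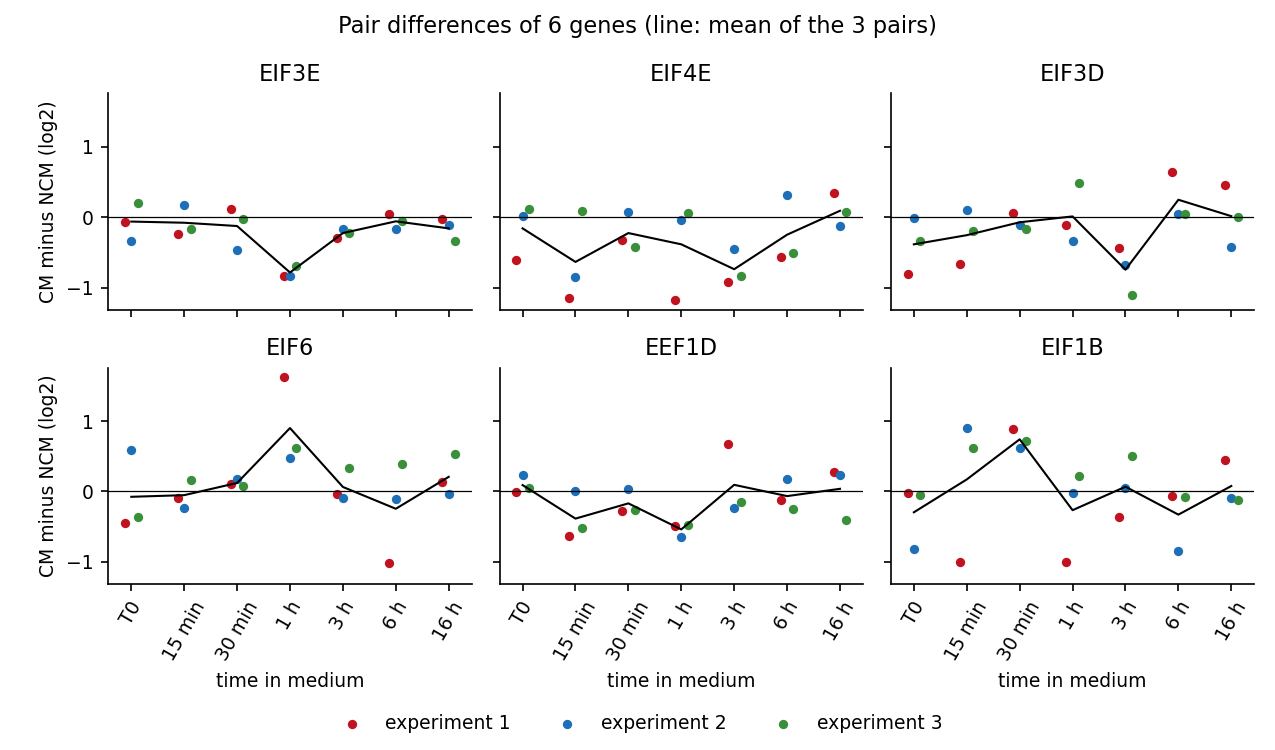
CM minus NCM (log2) for EIF3E, EIF4E, EIF3D, EIF6, EEF1D and EIF1B at each time, with a point per experiment and a line through the mean of the 3 pairs. The 3 pairs of EIF3E lie together at 1 h, from -0.83 to -0.69, whereas those of EIF6 at 1 h spread from 0.47 to 1.62.

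Of the eIF4 group, EIF4E, the cap-binding protein, had the lowest mean of all members after T0. At 15 min its log2 values were -0.72, -1.54 and -0.78 in CM and 0.42, -0.70 and -0.87 in NCM. The change of -0.63 (SE 0.26, n = 3 pairs, adjusted p = 1.00 in limma) came from experiments 1 and 2, and experiment 3 had 0.09. At 3 h the values were -0.73, -1.30 and -1.63 in CM and 0.19, -0.85 and -0.79 in NCM. The pair differences were -0.92, -0.45 and -0.84, and the change was -0.74 (SE 0.26, unadjusted p = 0.0102, adjusted p = 1.00), although the groups overlapped. The mean over 3 h, 6 h and 16 h was -0.30, lower in 6 of 9 pairs. At 16 h EIF4E had 0.09.

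EIF4G2, a relative of the eIF4G scaffold that does not bind eIF4E, had 0.51 at 1 h from pairs of -0.18, 0.63 and 1.07. Without the first of these, which holds the NCM array that stood apart, the change was 0.85. In the late mean it had 0.29, higher in 7 of 9 pairs, and 0.04 without experiment 2. The helicase EIF4A3, a part of the exon junction complex, had -0.42 at 15 min and -0.45 at 3 h, and -0.10 and -0.18 without experiment 2. The helicase partner EIF4H had 0.49 at 1 h, and 0.53 without the pair of the array that stood apart. EIF4B, another, had 0.38 at 1 h from pairs of 1.78, -0.51 and -0.14, and without the first pair, which holds that array, its change turned to -0.32. Of the EIF4E relatives, EIF4E2 had -0.47 and EIF4E3 -0.02 at 1 h, with -0.38 and 0.05 without that pair. EIF4E itself had -0.38 at 1 h from pairs of -1.17, -0.04 and 0.06, and 0.01 without the first. The inhibitors that bind eIF4E, EIF4EBP1 and EIF4EBP2, had -0.34 and -0.26 at 15 min, the former -0.15 without experiment 1. EIF4EBP2 at 6 h had -0.98, -1.32 and -1.11 in CM and -1.46, -1.39 and -1.41 in NCM. These groups did not overlap, but the change was 0.28 (SE 0.23, n = 3 pairs, adjusted p = 0.999 in limma).

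The 6 genes of eIF2 and its exchange factor had median changes between -0.11 and 0.07 over the 7 times, and the -0.11, at T0, was -0.01 without the pair of the array that stood apart. EIF2S1, the alpha subunit whose phosphorylation slows initiation under stress, had -0.20, 0.08, 0.11, -0.11, -0.31 and 0.33 from 15 min to 16 h. Its 0.11 at 1 h was -0.13 without the pair of the array that stood apart, and its 16 h pairs were 1.23, 0.17 and -0.39. EIF2S3, the gamma subunit, had 0.48 at 15 min (unadjusted p = 0.0459), most of it from experiment 1 with 1.05. EIF2S2, the beta subunit, had 0.23 at 6 h with pairs of 0.27, 0.33 and 0.09, but its 4 probes averaged to -0.01. Of the exchange factor eIF2B, which reloads eIF2 with GTP, EIF2B5 had -0.52 at T0, where all 3 pairs were lower, and 0.38 at 3 h from pairs of 1.04, 0.14 and -0.03, which left 0.06 without experiment 1. EIF2B1 and EIF2B2 had -0.44 and -0.27 at 1 h, and -0.42 and -0.16 without the pair of the array that stood apart. With that pair kept, the second EIF2B1 probe had 0.07 at 1 h and the 5 EIF2B2 spots averaged -0.08. EIF2D, which can deliver transfer RNA without eIF2, lay between -0.31 and 0.27, where the 0.27, at T0, was -0.06 without such a pair.

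Among the factors of scanning and subunit joining, EIF1B, a close relative of EIF1, had log2 values of -0.42, -1.04 and -0.56 in CM and -1.32, -1.66 and -1.27 in NCM at 30 min. The groups did not overlap, and the change was 0.74 (SE 0.30, n = 3 pairs, pair SD 0.14, adjusted p = 0.997 in limma). At 6 h its groups did not overlap in the other direction, with -0.33, and 6 h minus 30 min was -1.07 (unadjusted p = 0.0213, adjusted p = 0.998). EIF1, which keeps the scanning ribosome open, had -0.53 at 30 min and -0.63 at 1 h, with -0.32 at 30 min without experiment 2 and -0.25 at 1 h without experiment 3. EIF1AY, whose probe may also take up its X-linked copy EIF1AX, had an early mean of 0.46, higher in 7 of 9 pairs, and 0.51 at T0, and its early mean minus T0 was -0.04. Without the pairs of the arrays that stood apart these were 0.32, 0.18 and 0.15, and the early mean was 0.12 without experiment 1. These values hold for the brightest probe only. With the pairs of those arrays kept, the second EIF1AY probe, of another clone, had an early mean of -0.01, lower in 6 of 9 pairs. EIF5, which triggers GTP hydrolysis by eIF2, lay between -0.18 and 0.17, with 0.41 in place of 0.17 at T0 without such a pair. EIF5B, which joins the subunits, had -0.72 at T0, where experiment 2 gave -1.99 from an array that stood apart and the others -0.03 and -0.12.

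EIF6, which binds the large ribosomal subunit and keeps it from joining too early, had the largest change of any member. At 1 h its log2 values were 0.07, -1.15 and -0.75 in CM and -1.55, -1.62 and -1.36 in NCM. All CM cultures lay above all NCM cultures, and the change was 0.90 (SE 0.26, n = 3 pairs, unadjusted p = 0.00226, adjusted p = 0.977 in limma). The pair of experiment 1, which gave 1.62, holds the NCM array with the lowest correlation, and without it the change was 0.54. At 6 h EIF6 had -0.25, turning to 0.14 without experiment 1, and 6 h minus 1 h was -1.15 (unadjusted p = 0.00501, adjusted p = 1.00), or -0.79 without that 1 h pair.

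Of the elongation factors, EEF1D, a subunit of the eEF1B exchange complex, was the one with the smallest p. At 1 h its log2 values were 0.53, -0.30 and 0.47 in CM and 1.02, 0.35 and 0.95 in NCM. The pair differences were -0.49, -0.65 and -0.48, while the groups overlapped because experiment 2 was low in both media. The change was -0.54 (SE 0.20, n = 3 pairs, unadjusted p = 0.0139, adjusted p = 0.977 in limma). At 15 min its groups did not overlap, with 0.16, 0.63 and 0.17 in CM and 0.80, 0.64 and 0.69 in NCM. The early mean was -0.37 (SE 0.12, lower in 8 of 9 pairs, adjusted p = 0.686), and the late mean was 0.02. EEF1G, another subunit of that complex, had -0.43 at 3 h from pairs of -1.59, 0.07 and 0.23, and 0.15 without experiment 1.

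EEF1A1, among the most abundant messenger RNAs of growing cells, has 15 probes, which are 3 clones spotted 5 times each. Its probes may also take up EEF1A2 and pseudogenes, which was not checked here. On the brightest probe at 3 h the log2 values were 1.42, 1.33 and 1.37 in CM and 1.50, 1.56 and 2.05 in NCM. The groups did not overlap, and the change was -0.33 (SE 0.32, n = 3 pairs, adjusted p = 1.00 in limma). All 15 probes were below 0 at 3 h, from -0.80 to -0.11, but also at T0, from -0.28 to -0.06, and at 1 h, from -0.71 to -0.05. All 15 were above 0 at 16 h, from 0.10 to 0.27. These probes share their cultures and are not replicates of the medium. The mean of the 15 probes in the 3 pairs was -0.09, -0.48 and -0.65 at 3 h, and 0.68, 0.16 and -0.30 at 16 h. At 15 min it was 1.23, -0.32 and -0.62. At T0 it was 0.13, -0.74 and 0.04, where the second pair holds an array that stood apart. Without that pair the T0 change of the brightest probe turned from -0.07 to 0.15. At 1 h the mean of the 15 probes was -0.51, 0.06 and -0.60, and the first pair holds the other such array. Without it the brightest probe had 0.00 in place of -0.05. At every time the SD between pairs, 0.29 to 0.99, was larger than the SD between probes, 0.05 to 0.21. The former was taken over means of 15 probes and the latter over fitted changes, each the mean of 3 pairs. The 2 SDs are therefore not like for like, and their order can depend on this averaging.

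**Figure D3:**
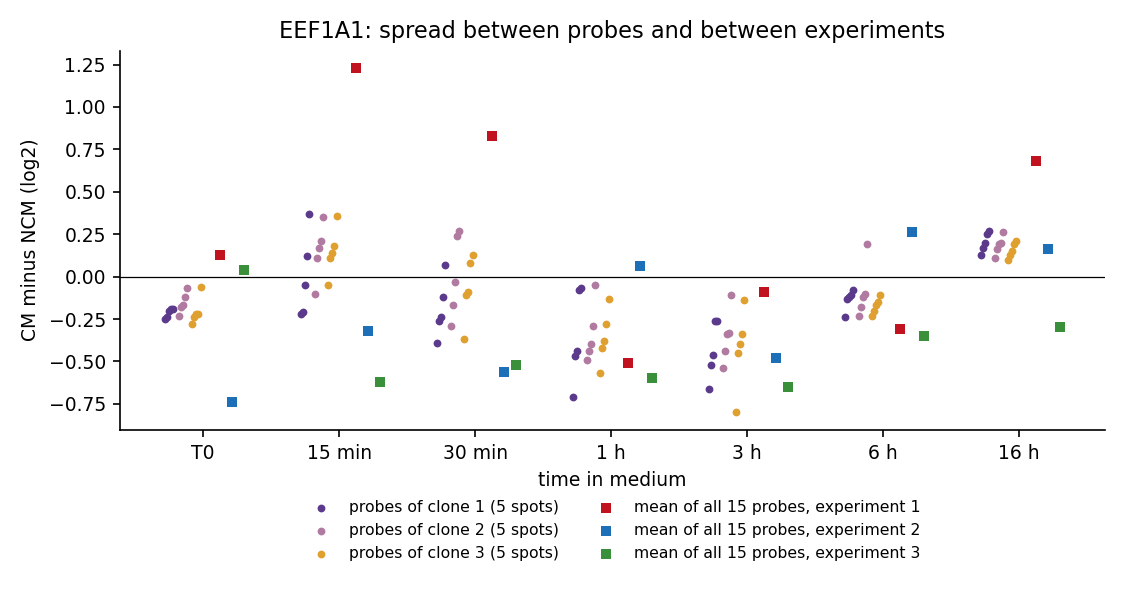
CM minus NCM of EEF1A1 on the log2 scale, as the fitted change of each of 15 probes (circles, coloured by the 3 clones) and as the mean of all 15 probes in each experiment (squares). At 16 h the probes lie within 0.10 to 0.27, and the experiments from -0.30 to 0.68.

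For the 10 members with several probes, all probes of a gene lay on the same side of 0 in 29 of 70 combinations of gene and time. EEF2, the translocation factor, had 0.51 and -0.04 on its 2 probes at T0 (0.28 and 0.18 without the pair of the array that stood apart), -0.13 and 0.45 at 30 min, and -0.16 and -0.72 at 16 h. The 5 spots of the single EIF2B2 clone ran from -0.59 to 0.60 at 16 h.

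In 11 of 37 members the SD of the pair means over the 21 pairs was larger than that of the pair differences. Both SDs describe spread, so the count does not say how far the media differ. The mean of 2 independent arrays varies less than their difference, so equal SDs are not a neutral point for this count. The share over all genes is not given for it. For EIF5A, a factor that helps ribosomes past difficult peptide bonds, the SDs of pair means and pair differences were 0.83 and 0.33. They were 0.69 and 0.33 for EIF4H and 0.68 and 0.45 for EEF2. After T0, EIF5A had a mean log2 value of -1.71 ± 0.23 (SD, n = 12 arrays) in experiment 1, of -0.14 ± 0.31 in experiment 2 and of 0.06 ± 0.09 in experiment 3. The highest array of experiment 1 was at -1.26 and the lowest of the others at -0.79. At T0 the order was another: experiment 1 had 0.28, experiment 2 -1.56 and experiment 3 0.11. The low T0 pair holds the NCM array that stood apart, but its CM array was low too, at -1.15. EEF2 had -1.53 ± 0.33, -0.51 ± 0.40 and -0.19 ± 0.33 after T0, and 0.19, -1.46 and 0.11 at T0. EIF4H lay the other way, with 0.33 ± 0.28, -1.12 ± 0.40 and -0.63 ± 0.52 after T0, and -0.48, 0.33 and 0.05 at T0. The lowest experiment of a time was the same in both media at 7 of 7 times for EIF5A and at 6 of 7 for EEF2, 15 min being the exception. The change of EIF5A between media stayed between -0.25 and 0.21, where the 0.21, at T0, was -0.09 without the pair of the array that stood apart. A mean of experiment 1 more than 1 log2 unit away from both others, on the same side, was found for 2 members, EIF5A and EEF2, and for 3.52% of all genes. The arrays of experiment 1 after T0 did not overlap the others for 1 of 37 members, EIF5A, and for 0.746% of all genes. The batch of cells, the labelling and the hybridisation of an experiment cannot be told apart here.

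**Figure D4:**
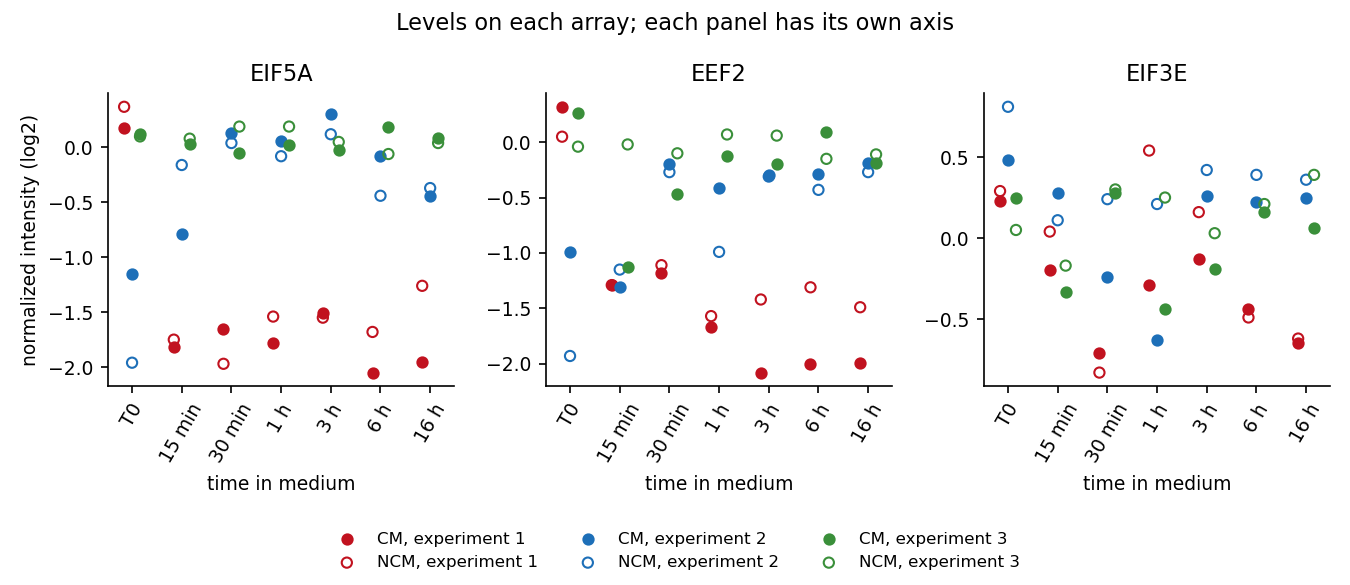
Normalized log2 intensity of EIF5A, EEF2 and EIF3E on each of the 42 arrays by time, with filled points for CM, open points for NCM and a colour per experiment, each panel on its own axis. EIF5A of experiment 1 lies between -2.05 and -1.26 in both media after T0, while at T0 experiment 2 is the low one.

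In the control medium alone, an F test of limma over the 7 times on 21 arrays called 0 members and 0.0145% of probes. EIF3D and EIF4B were the 2 members with an unadjusted p under 0.05 in limma, against 1.67% of probes. The NCM mean of EIF5B differed between times by up to 1.23, from T0 to 15 min, with SDs of 1.11 and 1.00 at those times, and that of EIF6 by up to 1.07. Without the NCM arrays that stood apart these were 1.04 and 1.21, so the order of the 2 genes turned. For CM against NCM, the 21 differences between any pair of times gave 0 calls among the members in limma and 0% over all probes. Of the 777 combinations of member and time pair, 28 had an unadjusted p under 0.05, against 3.62% over all probes.

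Members with a pyrimidine run at the annotated start were set beside those without, a grouping chosen after the values were seen. At 3 h the 8 members with a run had a median change of -0.30, with 7 of 8 below 0, and the pair medians were -0.11, -0.19 and -0.38. The 20 members with an entry and no run had a median of -0.08. With all probes of a gene averaged the 3 h median of the 8 was -0.07. At 15 min the medians were -0.14 and -0.11, and at 16 h they were -0.06 and 0.07. The 6 members listed from textbook knowledge as TOP messenger RNAs (the 4 EEF genes, EIF3E and EIF4B) had a median of -0.26 at 3 h, 5 of 6 below 0, and -0.15 at 15 min, 6 of 6 below 0. Their pair medians were -0.32, -0.14 and -0.19 at 3 h, and 0.13, -0.17 and -0.54 at 15 min, where the pairs did not share a direction. The counts of 5 of 6 and 6 of 6 hold for the brightest probes only. At 15 min all probes of EEF1A1 averaged to 0.10, those of EIF4B to 0.02 and those of EEF2 to -0.28. At 3 h these averages were -0.40, 0.03 and -0.10. The 57 ribosomal protein genes measured, the largest class of TOP messenger RNAs, had a median of 0.04 at 3 h, with 43.9% below 0 and pair medians of 0.43, -0.07 and -0.20, and one of -0.15 at 15 min, with 73.7% below 0.

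Other genes of protein synthesis were read from lists of their roles. Limma called 0 of 11 genes of termination, recycling and poly(A) binding, 0 of 14 aminoacyl-tRNA synthetases, 0 of 5 mitochondrial translation factors, 0 of 8 targets of the integrated stress response and 0 of 10 genes of mTOR and MNK signalling, in either direction, in the early and the late mean. At an unadjusted p under 0.05 the early mean held VARS1 and TARS1, the synthetases for valine and threonine, with -0.52 and 0.33, and ATF3 and ATF4, transcription factors of the stress response, with 0.45 and -0.28. Over all probes the share with such a p was 7% in the early mean and 5.98% in the late mean. For ATF3 the early mean was 0.30 without the pair of the 1 h array that stood apart. That of ATF4 was then -0.26, with an unadjusted p of 0.077 in limma. The late mean held WARS1, the tryptophan synthetase, with 0.47 and MRRF, a mitochondrial recycling factor, with -0.45, lower in 9 of 9 pairs. NUPR1, a stress-induced gene, had 0.34 in the late mean, higher in 9 of 9 pairs, with an adjusted p of 0.827 in limma.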

How the data were processed

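The authors deposited linear intensity values, 1 per probe and array, and at most 2.12% of an array's values are below 0. The sources used here do not give the array type, scanner, background step or scaling. Arrays were quantile normalized before the log, with a floor at the shared 1st percentile (0.0812), and put on the log2 scale. Limma 3.58.1 in R 4.3.3 fitted a term for each pair and a CM effect for each time over 42 arrays and 13824 probes (14 residual and 6.26 prior degrees of freedom, prior SD 0.309), so an SE pools all times. P-values are two-sided, with Benjamini-Hochberg adjustment within a contrast and a threshold of 0.05. The fit was tested on simulated data, and plots used matplotlib 3.10.9.

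The pairing comes from the labels, by number and time. As a check, the CM and NCM arrays of a pair deviated together from their groups in 21 of 21 pairs, with correlations of 0.308 to 0.754. All 37 members matched a GRCh38.p14 gene table by Entrez ID. Named in full were the 3 members with the smallest unadjusted p at each time and in the early and late mean, and fixed genes where measured. Of other lists, genes among the 3 smallest p of those means are named. Second probes and genes whose experiments differ were picked after their values were seen. Members and lists were chosen with earlier results of these data known.

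Alternatives were no replicate block, values as deposited, median centring, neighbour centring (removing the mean deviation of adjoining probe numbers), no dim probes, a floor at the 10th percentile, averaged probes, separate fits per time, an intensity trend, no copied probes, subtracting T0, classes by role, and leaving out experiments or pairs.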

Additional observations from a re-analysis of the deposited data

How the results depend on the processing

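In none of the alternatives did limma call a member, so the counts of 0 kept their value. Of 482 alternative values of 33 named results, 473 kept their direction and 0 passed the threshold. Part of the 473 was fixed in advance. No replicate block, an intensity trend, no copied probes, no dim probes and separate fits per time leave a change as it is and move only its p. Averaging probes leaves the changes of members with 1 probe as they are. For EIF3E at 1 h the adjusted p ran from 0.163 to 1.00 and the change from -0.85 to -0.57. The fit with no replicate block, in place of the pairing of the labels, called 0 members, gave the same changes and moved the adjusted p of EIF3E at 1 h to 1.00. Leaving out the 2 least correlated arrays or their pairs, and leaving out experiments for the members outside these results, was chosen after seeing the data.

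The 9 values that turned were EIF2S2 at 6 h with probes averaged (-0.01), EIF4EBP2 at 6 h as deposited (-0.01), EIF2S1 at 16 h without experiment 1 (-0.11, in a range of -0.11 to 0.70 over the experiments left out), EEF1G at 3 h without experiment 1 (0.15, in a range of -0.76 to 0.15), and 5 after subtracting T0: EEF1G at 3 h (0.01), EIF1AY in the early mean (-0.04), EIF3G at 16 h (0.11) and in the late mean (0.33), and EIF5B at 16 h (0.29). With the least correlated pairs left out as well, the 5 were 0.16, 0.15, -0.30, -0.09 and -0.35. The cause was not tested.

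The median change of the members moved at T0 to 0.03 with median centring and 0.01 with neighbour centring, at 1 h to 0.06 with median centring and -0.03 as deposited, and at 6 h to 0.12 with median centring. At 16 h it moved to 0.01 with probes averaged, 0.01 with neighbour centring and 0.03 after subtracting T0. Leaving out an experiment gave -0.15 to -0.02 at T0, -0.13 to -0.02 at 3 h and -0.06 to 0.02 at 16 h.

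The EIF minus EEF difference moved at T0 to -0.05 with probes averaged, 0.15 with neighbour centring, -0.15 without the least correlated pairs and -0.15 by role, at 30 min to 0.11 by role, and at 3 h to 0.26 as deposited, with median centring and with the higher floor. Leaving out an experiment gave -0.15 to -0.01 at T0, 0.12 to 0.31 at 3 h, -0.11 to 0.13 at 6 h and -0.02 to 0.13 at 16 h. The median of all genes itself moved to -0.11 at 6 h as deposited and to -0.10 at 30 min and 3 h with median centring. The causes of these shifts were not tested. The sources used here do not give signal over background, and 3 members lie in the dimmest 25% of probes.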
